A study of Mus musculus with 4 samples.

Results

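Sterol and fatty acid synthesis enzymes, with the regulators that set their transcription, were compared between metanephric mesenchyme (MM) and intermediate mesoderm (IM) of the mouse embryo. The 35 genes were chosen by name from the pathway, with earlier results of these data known. The platform annotation gave 35 probes for 32 of them, out of 22702 probes on the array. Acat2, Hmgcs1 and Scap have no log2 ratio here and were counted for their promoter sequences alone. In addition, 1 further probe that carries Nsdhl among several gene symbols was not used. MM, from which nephrons of the permanent kidney arise, and IM, the mesodermal strip that gives rise to the urogenital system, were both dissected from embryos of both sexes at 10.5 days post coitum (dpc). Their RNA was amplified and hybridised together on 4 two-colour oligonucleotide arrays, with MM in channel 1 and IM in channel 2 for arrays 1 and 2, and the reverse for arrays 3 and 4. On that second pair the names are swapped in their nouns (metanephric mesoderm, intermediate mesenchyme), and both were read as the same tissues. The labels do not say which strain was used, how many embryos were pooled or whether arrays share an RNA extract. Each p-value thus reflects array-to-array spread alone, and that spread may be technical.

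Cells build cholesterol from acetyl-CoA through mevalonate, isoprenoid units, squalene and lanosterol, and build fatty acids from acetyl-CoA and malonyl-CoA by Fasn, followed by elongation and desaturation. Transcription of both routes is driven by the SREBP factors, encoded by Srebf1 and Srebf2, whose release from the endoplasmic reticulum requires Scap and is blocked by the Insig proteins when sterol is plentiful. Sterols also modify Hedgehog ligands and activate their signalling, and defects of the late steps in mouse and human cause malformation syndromes.

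SREBP factors bind sterol regulatory elements in gene promoters, usually beside sites for the factor NF-Y, whose core is CCAAT, or for Sp1. The promoter windows of the 4 genes that were at least 2-fold higher in MM with and without a term for channel orientation, and that have an entry in the RefSeq promoter table, are shown because they are the genes with the clearest difference between the tissues. Fads1 met the same rule on fold. Each window runs from 250 bases before to 50 after the annotated start, on the build GRCm38.p6, 5′ to 3′. Capitals mark CCAAT on either strand (CCAAT or ATTGG).
Idi1 promoter, chr13:8885356-8885655, plus strand: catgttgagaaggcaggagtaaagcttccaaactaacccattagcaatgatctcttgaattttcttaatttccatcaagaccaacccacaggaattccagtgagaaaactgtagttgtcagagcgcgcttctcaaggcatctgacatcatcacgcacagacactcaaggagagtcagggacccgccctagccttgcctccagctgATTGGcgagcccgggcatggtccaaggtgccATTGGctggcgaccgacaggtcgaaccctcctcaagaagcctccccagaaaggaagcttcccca
Cyp51 promoter, chr5:4104648-4104947, minus strand: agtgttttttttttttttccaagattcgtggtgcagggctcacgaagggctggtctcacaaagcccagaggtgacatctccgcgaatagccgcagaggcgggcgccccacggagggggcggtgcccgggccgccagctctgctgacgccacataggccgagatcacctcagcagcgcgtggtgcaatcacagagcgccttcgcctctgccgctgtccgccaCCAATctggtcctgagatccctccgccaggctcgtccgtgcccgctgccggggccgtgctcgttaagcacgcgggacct
Nsdhl promoter, chrX:72918271-72918570, plus strand: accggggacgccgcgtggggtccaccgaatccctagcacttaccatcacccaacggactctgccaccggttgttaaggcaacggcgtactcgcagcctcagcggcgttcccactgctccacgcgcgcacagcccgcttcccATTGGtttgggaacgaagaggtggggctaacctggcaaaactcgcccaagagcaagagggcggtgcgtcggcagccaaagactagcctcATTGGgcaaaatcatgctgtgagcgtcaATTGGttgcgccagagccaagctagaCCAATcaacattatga
Elovl6 promoter, chr3:129532136-129532435, plus strand: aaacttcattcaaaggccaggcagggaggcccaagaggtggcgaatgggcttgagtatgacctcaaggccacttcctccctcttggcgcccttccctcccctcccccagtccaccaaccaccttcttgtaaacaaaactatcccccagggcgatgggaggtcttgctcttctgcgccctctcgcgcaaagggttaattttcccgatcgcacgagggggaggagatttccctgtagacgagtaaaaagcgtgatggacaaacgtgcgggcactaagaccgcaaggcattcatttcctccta
The Nsdhl window held 4 CCAAT boxes, the Idi1 window 2 and the Cyp51 window 1, whereas the letters were not in the Elovl6 window. The promoter table held 38 windows for 28 of the 35 genes. CCAAT, on both strands, was in the windows of 23 of these 28 genes (82.1%), against 41.1% of all 27025 genes in the table. It was present for 10 of 12 genes higher in MM in both fits (83.3%) and for 3 of 4 genes lower in both fits (75%). A gene was counted if any of its windows held the letters. By window, CCAAT was in 10 of 15 for the higher genes (66.7%) and in 4 of 9 for the lower genes (44.4%). The share was 63.2% over the 38 windows of the 28 genes and 37.4% over all windows. Acaca is counted among the lower genes by 1 of its probes, while its other tested probe was not called. The Sp1 core GGGCGG was in the windows of 23 of 28 genes (82.1%), against 38.2% of all genes. The palindromic E-box CACGTG was in those of 6 of 28 (21.4%), against 8.09%. The sterol element TCACNCCAC was in that of 1 of 28 (3.57%), Hmgcs1, against 1.44% of all genes. Hmgcs1 has no log2 ratio here. The element was in 0 of the 12 genes higher in both fits and in 0 of the 4 lower. Matches of different motifs overlapped in 1 of the 38 windows. These are matches of letters, and no binding was measured.

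Of the 140 possible values of the synthesis probes, 134 were present and 0 stood at the floor of -6.64, the log2 of a ratio of 0.01. The missing values were on arrays 3 and 4, which hold fewer values over the whole array (15812 and 16242, against 21509 and 21599 on arrays 1 and 2). Log2 ratios are given as MM over IM. That direction is likely from the labels and not settled by them, since they do not tie a dye to each channel. Gdnf, the signal by which MM attracts the ureteric bud, was above 0 on all 4 arrays (1.92 ± 0.13, SD, n = 4), and Wt1, a factor of kidney and gonad, was below 0 on all of them (-1.57 ± 0.02). The tissue markers did not all divide that way. Of 7 tested MM markers, 4 were called higher in MM and 1 lower (4 and 0 in both fits): Itga8, an integrin, read 3.67 and 4.16 on arrays 1 and 2 and was at the floor on arrays 3 and 4. Of 5 tested markers of IM and gonad, 1 was higher and 2 lower, the same in both fits, and the higher one was Osr1, an early IM factor (0.44 ± 0.17). Eya1, Hoxd11, Lhx1 and Pax2 differed in sign between arrays and were not called. Over 13191 probes above the floor, the Pearson correlation of arrays 1 and 2 was 0.836, that of arrays 3 and 4 was 0.912, and arrays of opposite orientation had 0.113 to 0.274. With probes at the floor included, r between orientations was -0.349 to -0.26.

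The synthesis genes were mostly higher in MM, unlike the array as a whole. Of 30 probes (29 genes) with a value on every array, 18 were called higher in MM (60%) and 6 lower (20%), and 6 were not called. Over all 14184 tested probes the same rule, a limma adjusted p under 0.05 with a term for channel orientation, called 23.8% higher and 38.1% lower. Without the orientation term, 13 of the 30 were higher (43.3%) and 4 lower (13.3%), against 13.6% and 14.4% of all tested probes. All 17 of these were among the 24 calls with the term, and are described below as called in both fits. The log2 ratio was above 0 on all 4 arrays for 19 probes and below 0 on all 4 for 6, against 21.0% and 28.4% of all tested probes. The other 5 differed in sign between arrays. The median of the 30 mean log2 ratios was 0.28, and that of all tested probes -0.08. Array by array, the median of the 30 was 0.26, 0.29, 0.31 and 0.34, where all tested probes had -0.09, -0.07, -0.04 and -0.04. In these bulk tissues, fewer cells that express a gene and less RNA per cell cannot be told apart.

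**Figure D1:**
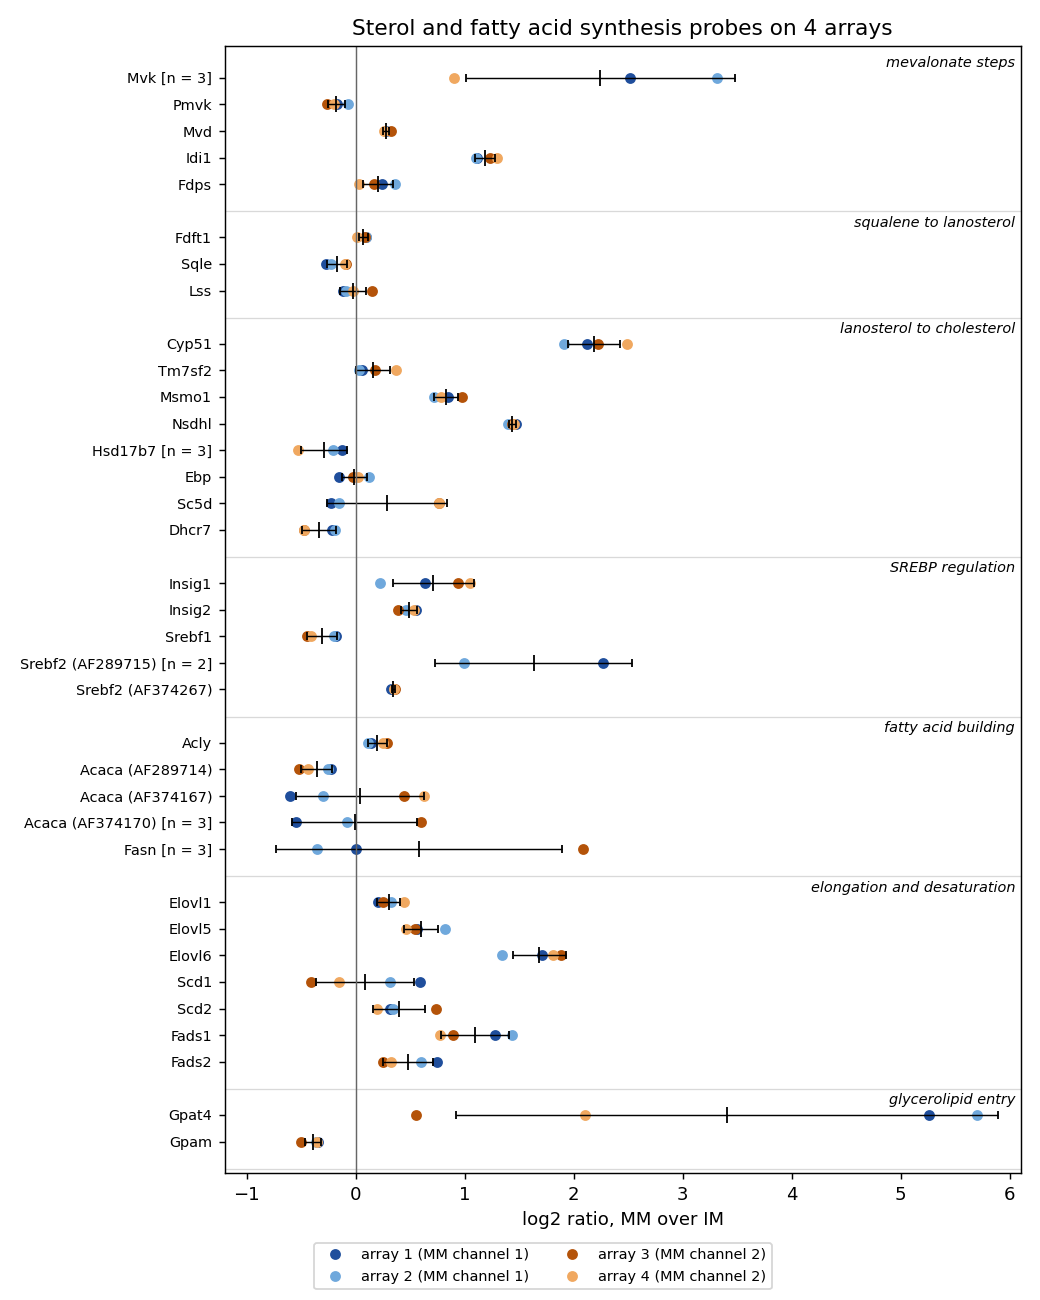
Log2 ratio of MM over IM for the 35 probes, ordered by pathway step. Points are the 4 arrays, coloured by channel orientation, and the black bar and line are mean ± SD. Cyp51, Nsdhl, Idi1 and Elovl6 lie above 1 on every array, and Gpat4 ranges from 0.55 to 5.70.

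In the mevalonate steps, which turn acetyl-CoA into the 5-carbon isoprenoid units, Idi1 stood apart from its neighbours. Idi1, the isomerase that supplies dimethylallyl diphosphate, had log2 ratios of 1.12, 1.10, 1.23 and 1.30 on arrays 1 to 4. All 4 arrays thus put it more than 2-fold higher in MM, and the mean was 1.19 ± 0.09 (SD, n = 4), a 2.28-fold difference (limma adjusted p = 0.000467, and 0.00233 without the orientation term). Mvd, the decarboxylase just before it, read 0.28, 0.27, 0.32 and 0.26. It was 1.22-fold higher in MM, with arrays closer together than for Idi1 (0.28 ± 0.03, adjusted p = 0.00465 and 0.0153). Fdps, which joins the units into farnesyl diphosphate, was higher in 1 fit alone (0.20 ± 0.14, adjusted p = 0.0274 with the term and 0.121 without). Pmvk, the phosphomevalonate kinase, was below 0 on all 4 arrays (-0.27 to -0.07) and was called lower with the orientation term alone (adjusted p = 0.0214 and 0.0824). The Fdps and Pmvk calls were lost without any 1 of the 4 arrays (adjusted p = 0.067 to 0.129 and 0.052 to 0.106). Mvk, mevalonate kinase, read 2.52, 3.32 and 0.90 on arrays 1, 2 and 4, with no value on array 3. Those 3 values are all on the MM side but span a wide range, and the probe was not tested over 4 arrays. Among probes with 3 or more values its adjusted p was 0.0293.

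The steps from farnesyl diphosphate to lanosterol showed almost no difference. Fdft1, squalene synthase, read 0.10, 0.10, 0.08 and 0.01, a mean of 0.07 ± 0.04 that was not called (adjusted p = 0.113). Sqle, the squalene epoxidase, a control point of the sterol route, read -0.27, -0.23, -0.09 and -0.10. All 4 arrays were on the IM side, by 1.13-fold, and it was called lower with the orientation term alone (adjusted p = 0.0129, and 0.1 without). The Sqle call was lost without array 3 or 4 (adjusted p = 0.0747 and 0.0784). Lss, lanosterol synthase, was on the IM side on 3 arrays and on the MM side on array 3 (-0.02 ± 0.12, adjusted p = 0.684). The 3 means spanned -0.17 to 0.07, while Idi1 upstream and Cyp51 downstream were at 1.19 and 2.18.

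In the conversion of lanosterol to cholesterol, Cyp51, Nsdhl and Msmo1 were higher in MM in both fits, next to enzymes that were not called or were lower. Cyp51, the demethylase that acts on lanosterol, had log2 ratios of 2.12, 1.91, 2.22 and 2.49. It was 4.54-fold higher in MM (2.18 ± 0.24, adjusted p = 0.000734 and 0.0025 without the term), above 99.4% of all tested probes. Msmo1, the methyl oxidase that follows in the removal of the methyl groups at carbon 4, read 0.85, 0.71, 0.98 and 0.78, a 1.78-fold difference (0.83 ± 0.11, adjusted p = 0.00203 and 0.00419). Nsdhl, the dehydrogenase that works with Msmo1, read 1.47, 1.40, 1.43 and 1.45. Its 4 arrays lay closer together than those of Cyp51 or Msmo1, at 2.71-fold higher in MM (1.44 ± 0.03, adjusted p = 0.000362 and 0.00154).

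The remaining enzymes of this stretch did not share that difference. Tm7sf2, a sterol reductase that acts after Cyp51, was above 0 on every array but not called (0.16 ± 0.16, adjusted p = 0.0543). Ebp, the sterol isomerase, read -0.16, 0.12, -0.02 and 0.02 and was not called (adjusted p = 0.889). Hsd17b7, the ketoreductase that completes demethylation beside Msmo1 and Nsdhl, read -0.13, -0.20 and -0.53 on arrays 1, 2 and 4. These values point to IM, the opposite of its partners, and were not tested over 4 arrays (adjusted p = 0.0324 among probes with 3 or more values). Dhcr7, the reductase of the last step of 1 branch, read -0.22, -0.19, -0.47 and -0.47. It was 1.26-fold higher in IM and called lower in both fits (-0.34 ± 0.16, adjusted p = 0.00283 and 0.0469). Sc5d, the desaturase just before Dhcr7, read -0.23 and -0.15 on arrays 1 and 2 but 0.76 and 0.77 on arrays 3 and 4. Its call as higher with the orientation term (0.29 ± 0.55, adjusted p = 0.00504, and 0.46 without) therefore stands on arrays 3 and 4, and the sign was reversed on the other pair.

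Among the regulators, both Insig genes and Srebf2 were higher in MM and Srebf1 was lower, each in both fits. Insig1, which retains the SREBP complex in the endoplasmic reticulum and is itself an SREBP target, read 0.63, 0.23, 0.94 and 1.05. The spread was wide but every array was on the MM side, with a mean of 0.71 ± 0.37, or 1.64-fold (adjusted p = 0.00742 and 0.0476). Without array 4, the Insig1 call was lost (adjusted p = 0.0529). Insig2, which has the same role and is less tied to SREBP activity, read 0.56, 0.47, 0.39 and 0.54, a 1.40-fold difference (0.49 ± 0.08, adjusted p = 0.00354 and 0.00768). Srebf2, which encodes the SREBP that mainly drives sterol genes, had 2 probes. The probe for AF374267 read 0.32, 0.35, 0.37 and 0.35, a small and even difference of 1.27-fold (0.35 ± 0.02, adjusted p = 0.00265 and 0.00921). The probe for AF289715 read 2.27 and 0.99 on arrays 1 and 2 with no value on the others, the same sign but another size. Srebf1, whose products favour fatty acid genes, read -0.18, -0.19, -0.45 and -0.41. It was 1.24-fold higher in IM on average (-0.31 ± 0.14, adjusted p = 0.00337 and 0.048), opposite in sign to Srebf2.

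**Figure D2:**
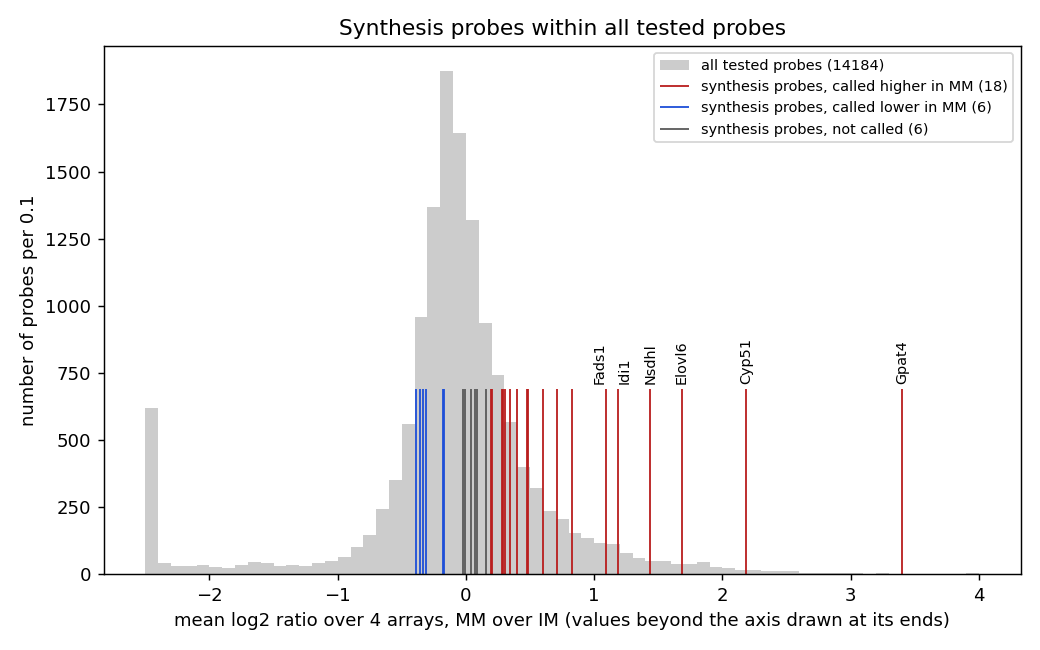
Mean log2 ratio over 4 arrays for all 14184 tested probes (grey bars, number per bin of 0.1) and for the 30 tested synthesis probes (vertical lines, coloured by call with the orientation term). The 6 probes called lower lie between -0.39 and -0.17, and those called higher reach from 0.20 to 3.40.

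The enzymes that build the fatty acid chain differed little or gave discordant probes. Acly, which makes cytosolic acetyl-CoA from citrate, read 0.14, 0.11, 0.29 and 0.25 and was called higher with the orientation term alone (0.20 ± 0.09, adjusted p = 0.00927, and 0.0674 without). The Acly call was lost without array 3 or 4 (adjusted p = 0.0641 and 0.0564). Acaca, the carboxylase that makes malonyl-CoA, had 3 probes that did not tell 1 story. The probe for AF289714 read -0.23, -0.25, -0.52 and -0.43, lower in MM on every array and in both fits (-0.36 ± 0.14, adjusted p = 0.00336 and 0.0348). The probe for AF374167 read -0.60 and -0.30 on arrays 1 and 2 but 0.45 and 0.62 on arrays 3 and 4 (adjusted p = 0.652). The probe for AF374170 had the same split, at -0.55 and -0.08 in 1 orientation and 0.60 on array 3. Only the AF289714 probe thus kept its sign in both orientations. Fasn, the fatty acid synthase, read 0.01, -0.35 and 2.08 on arrays 1 to 3 with no value on array 4. The reading far from 0 is that of array 3 alone, so the orientations did not share a difference (adjusted p = 0.027 among probes with 3 or more values).

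Elongases and desaturases were higher in MM for 6 of 7 genes, 5 of them in both fits, and 0 of 7 were lower, where 23.8% and 38.1% of all tested probes were called higher and lower (13.6% and 14.4% without the term). Elovl6, which extends palmitate to stearate, had log2 ratios of 1.71, 1.34, 1.88 and 1.81. It was 3.22-fold higher in MM (1.69 ± 0.24, adjusted p = 0.00118 and 0.00341), above 98.3% of tested probes. Fads1, the delta-5 desaturase of polyunsaturated fatty acids, read 1.28, 1.44, 0.89 and 0.78, a 2.14-fold difference (1.10 ± 0.31, adjusted p = 0.00102 and 0.012). Fads2, the delta-6 desaturase, read 0.74, 0.60, 0.25 and 0.32 (0.48 ± 0.23, adjusted p = 0.00329 and 0.0438). Both desaturases were on the MM side on every array and lower on arrays 3 and 4 than on arrays 1 and 2. Elovl5, which elongates polyunsaturated chains, read 0.56, 0.82, 0.55 and 0.46, or 1.51-fold (0.60 ± 0.15, adjusted p = 0.00462 and 0.012). Elovl1, an elongase of very long saturated chains, read 0.20, 0.32, 0.25 and 0.44 (0.30 ± 0.10, adjusted p = 0.0155 and 0.0326). Its difference was smaller than that of Elovl5 and lost its call without array 1, 2 or 4 (adjusted p = 0.0883, 0.11 and 0.0613).

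The stearoyl-CoA desaturases, which make monounsaturated fatty acids, were less clear. Scd2 read 0.31, 0.35, 0.74 and 0.19, above 0 on every array, and was just inside the threshold with the orientation term (0.40 ± 0.24, adjusted p = 0.0499, and 0.0708 without). Without array 1 or 2 the Scd2 call was lost (adjusted p = 0.236 and 0.247). Scd1 read 0.59 and 0.32 on arrays 1 and 2 but -0.41 and -0.15 on arrays 3 and 4, and was not called (0.09 ± 0.45, adjusted p = 0.393).

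The acyltransferases that open glycerolipid synthesis had the highest and the lowest mean among the 30 tested probes. Gpat4, the isoform of the endoplasmic reticulum, read 5.26 and 5.70 on the first pair of arrays, but 0.55 and 2.10 on the second pair. All arrays were on the MM side, but the size differed by 4.15 on the log2 scale between orientations, so the mean of 3.40 ± 2.49 is not a settled fold. Its call was lost without the orientation term (adjusted p = 0.00414 with it and 0.0969 without) and without array 1 or 2 (adjusted p = 0.0636 and 0.0675). Gpam, the mitochondrial isoform, read -0.35, -0.37, -0.50 and -0.35, a 1.31-fold higher level in IM (-0.39 ± 0.07, adjusted p = 0.00457 and 0.0117). Leaving out array 1 or 2 put Gpam just past the threshold (adjusted p = 0.053 and 0.0538).

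The difference between channel orientations was smaller for the synthesis probes than for the array as a whole. The orientation term passed the threshold for 8 of the 30 (26.7%), and for 44.6% of all tested probes. It was larger in size than the tissue term for 7 of the 30 (23.3%), and for 58.8% of all. The median absolute difference between orientations was 0.18 on the log2 scale, against 0.34 over all tested probes. The synthesis probes held 0 values at the floor, whereas 993 of all tested probes (7.0%) had such a value. Shares without those probes were not computed. The comparison with the tissue term also depends on its size, and the genes were chosen with earlier results known. Of the 8 probes whose orientation term passed, Gpat4, Fads1, Fads2, Dhcr7 and Srebf1 kept 1 sign on all arrays, while Sc5d, Scd1 and the AF374167 probe of Acaca changed sign. Across the 30 probes, which are not independent replicates and share the same hybridisations, Spearman's rho between arrays was 0.957 and 0.942 within an orientation and 0.729 to 0.74 between orientations.

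**Figure D3:**
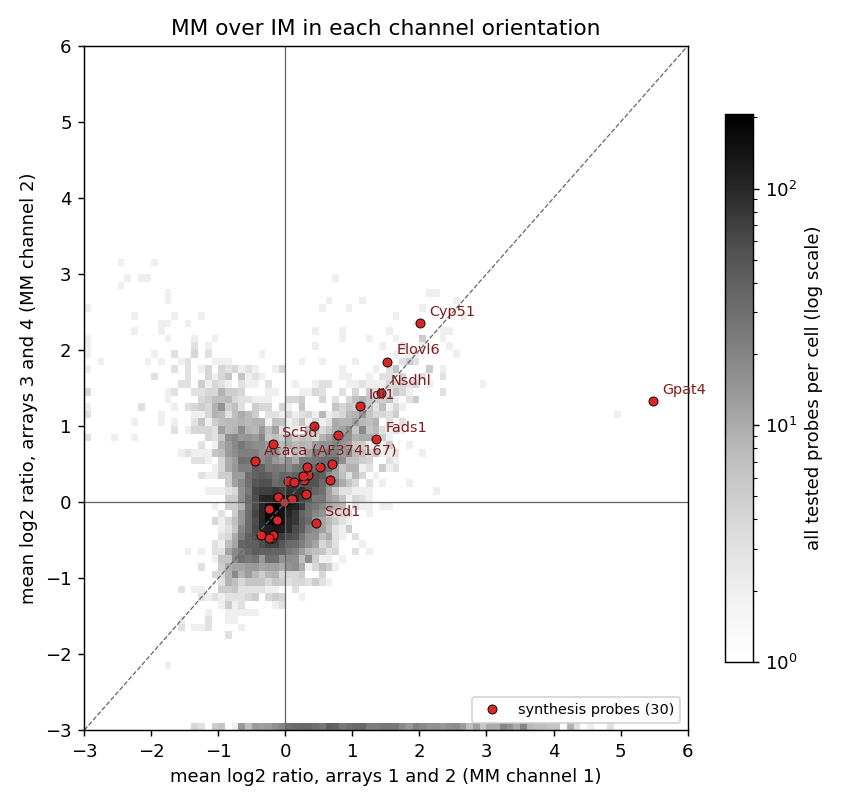
Mean log2 ratio of arrays 1 and 2 (horizontal) against that of arrays 3 and 4 (vertical) for all tested probes (grey, log colour scale, values outside the axes drawn at their edges) and the 30 synthesis probes (red). The dashed line marks equal ratios. Cyp51, Elovl6, Nsdhl and Idi1 lie near it, Gpat4 lies far to the right, and Sc5d, Scd1 and an Acaca probe lie in quadrants of opposite sign.

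Neighbouring lipid pathways were counted for comparison, from lists of genes chosen by function. Their counts stand beside 23.8% higher and 38.1% lower among all tested probes, or 13.6% and 14.4% without the orientation term, and with 6 to 11 probes a list several lie near these shares. Of 20 other synthesis and SREBP-related genes, 13 had a probe and 11 were tested. Of these, 5 were higher in MM and 5 lower (5 and 2 in both fits), with a median log2 ratio of 0.11. The higher ones included Elovl2, an elongase of polyunsaturated chains (0.73 ± 0.16), Hacd3, a dehydratase of the elongation cycle (0.72 ± 0.36), and Hsd17b12, the ketoreductase of that cycle (0.49 ± 0.07), all called in both fits. Me1 (-0.29 ± 0.10) and Mbtps1 (-0.24 ± 0.065) were lower in both fits. Elovl3, called lower with the orientation term alone, read 3.30 and 0.70 on arrays 1 and 2 and was at the floor on arrays 3 and 4.

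Of 12 genes of fatty acid oxidation, the opposite process, 8 were tested. Of these, 4 were higher and 4 lower (3 and 1 in both fits), with a median of 0.06. Among the lower calls, Hadh read 1.14 and 0.32 on arrays 1 and 2 and was at the floor on arrays 3 and 4. Ehhadh, also called lower, changed sign between orientations (0.10, 0.09, -0.31 and -0.27). Both were called with the orientation term alone. The other lower calls were below 0 on every array. Acaa2 was called in both fits (-0.45 ± 0.16, limma adjusted p = 0.00532 and 0.0249), and Cpt2 with the orientation term alone (-0.15 ± 0.01, adjusted p = 0.0152 and 0.0603). Acads, the short-chain acyl-CoA dehydrogenase, was higher by 1.42 ± 0.41, Acadl, its long-chain counterpart, by 0.71 ± 0.32, and Hadhb, a subunit of the trifunctional protein, by 0.65 ± 0.15. Sterol transport, storage and efflux had 3 higher and 2 lower of 6 tested (2 and 0 in both fits, median 0.18). Scarb1, a lipoprotein receptor, was higher by 0.64 ± 0.28 and Npc1, which exports cholesterol from lysosomes, by 0.43 ± 0.09.

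The branch of isoprenoids that leaves the sterol route had 1 higher and 3 lower of 6 tested (1 and 1 in both fits, median -0.10). Dhdds, which makes dolichol precursors, was higher by 0.34 ± 0.03, and Icmt, which methylates prenylated proteins, was lower (-0.24 ± 0.07). Later glycerolipid and acyl-CoA genes had 2 higher and 2 lower of 8 tested (0 and 2 in both fits, median -0.13). Dgat1 (-0.32 ± 0.14) and Dgat2 (-0.26 ± 0.11), which make triglyceride, were both lower, as Gpam was. These lists were not tested against the synthesis genes.

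Markers of cell types that might have been dissected along with MM or IM also differed between the tissues. The shares over all tested probes were again 23.8% higher and 38.1% lower, and 13.6% and 14.4% without the term. Tested were 14 probes of 11 genes of endoderm and liver bud, whose cells are known for active lipid synthesis. Of these probes, 10 were higher in MM and 2 lower (9 and 0 in both fits). Their median log2 ratio was 1.10, and 1.24, 1.10, 1.20 and 1.22 on arrays 1 to 4. Afp, a fetal serum protein, was higher by 1.86 ± 0.32, whereas Alb, albumin, was called lower with the orientation term alone (-0.20 ± 0.12, adjusted p = 0.0264 and 0.111). The other lower call was a Trf probe, at 2.54 and 0.80 on arrays 1 and 2 and at the floor on arrays 3 and 4. The other tested Trf probes were higher in both fits. Apob (-0.44, -0.72, 1.35 and 1.86) and a Foxa1 probe (-1.16, -1.54, 2.20 and 1.73) changed sign between orientations. Of 7 tested epithelial genes, 7 were higher (4 in both fits), with a median of 1.32, or 0.80, 0.80, 0.96 and 1.15 by array, and Epcam at 1.87 ± 0.06. Cdh1 (-0.35, -0.07, 2.76 and 2.94 on arrays 1 to 4) and Krt19 (-0.24, 0.05, 0.64 and 0.85) changed sign between arrays. Both were called with the orientation term alone.

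Genes of steroid-making cells of gonad and adrenal, which use cholesterol as a substrate, were lower in MM for 5 of 5 tested (4 in both fits), with a median of -1.31, or -1.45, -0.93, -1.51 and -1.34 by array. Nr5a1, their master regulator, was at -1.68 ± 0.22. Cyp11a1 read -0.63 and -0.70 on arrays 1 and 2 but 0.17 and 0.06 on arrays 3 and 4. It was called lower with the orientation term alone (adjusted p = 0.00881 and 0.396). Of 3 further genes with values on arrays 1 and 2 alone, Star, the cholesterol carrier of steroid synthesis, read -0.91 and -1.44, and Hsd3b1, a steroid dehydrogenase, read -0.88 and -0.85. Cyp17a1, a steroid hydroxylase, read 0.89 and 0.53, the other way. Neural genes were lower for 4 of 4 tested (4 in both fits, median -0.79), and erythroid genes had 2 higher and 1 lower of 4 (0 and 1 in both fits, median -0.02). Genes of proliferating cells had 2 higher and 1 lower of 5 (40% and 20%, 2 and 0 in both fits). The higher ones were Mcm7, a helicase subunit, at 2.54 ± 0.08, and Rrm2 at 1.24 ± 0.21. Mcm2 (0.25 ± 0.29) and Mcm5 (0.19 ± 0.19) were not called. Mki67 was called lower with the orientation term alone (-0.28 ± 0.23, limma adjusted p = 0.00494 and 0.147). The part of such cells in the ratios of the synthesis genes was not tested.

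**Figure D4:**
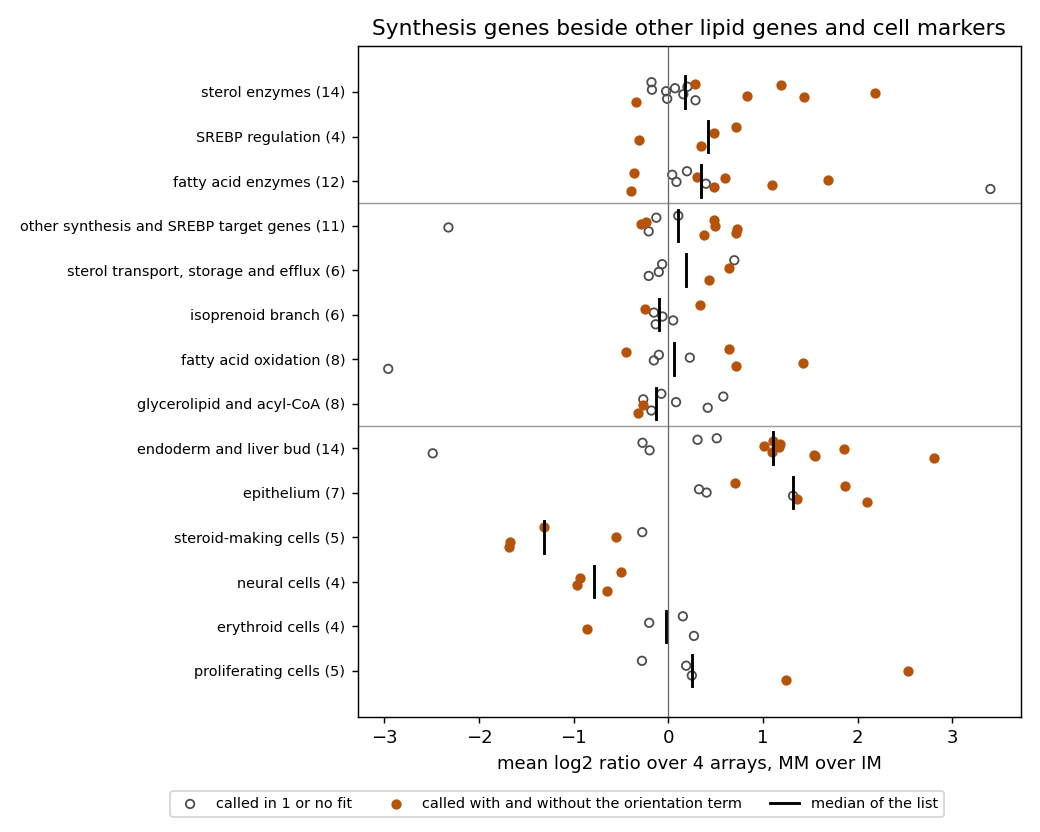
Mean log2 ratio over 4 arrays of each tested probe in the synthesis lists (top), the other lipid lists (middle) and the cell marker lists (bottom), with the number of probes in brackets. Filled points were called with and without the orientation term, and black bars are list medians. Endoderm and epithelial medians lie at 1.10 and 1.32, and the steroid-making median at -1.31.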

How the data were processed

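Each probe has 1 deposited log2 ratio per array. According to the descriptions in the labels, the authors quantified spots with Imagene 5.5, reversed signal and control on arrays 3 and 4 because of the dye swap, fitted a lowess curve to log ratio against log intensity with 20.0% of the data at each point, adjusted the control value by it, and raised control values under 10 to 10. How background was corrected and spots were filtered is not given in the sources used. Base 2 was found from the values themselves: 98.9% to 100.0% of ratios under 1 came out as whole thousandths (tolerance 0.01 of a thousandth) when taken from base 2. No intensities are used, so the signal over background is not known, and precision is limited by the number of arrays.

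Probes were named from the platform annotation (17252 with 1 symbol, 156 with several, 5294 with none). Symbols were checked by gene ID in a RefSeq table of GRCm38.p6, which matched 16566 and renamed 0. Probes with several symbols were not named. The members and lists were chosen with earlier results of these data known.

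The 14184 probes with 4 values were fitted with limma 3.58.1 in R 4.3.3, using a model with the tissue ratio as its intercept plus a channel orientation term, and p-values were adjusted over all of them by the Benjamini-Hochberg method (threshold 0.05). The residual of that fit rests on arrays of the same orientation, so the fit without the term is given beside it; where 2 adjusted p-values are given, the second is without the term. The script was also run on simulated arrays with independent noise of the size seen between arrays of the same orientation. That run could not check errors that such arrays share. Every member with a probe is described. Values per array are given for those called in both fits, the extremes of each step, genes with discordant probes and the main regulatory genes. From each other lipid list, up to 3 of the largest called in both fits are named. Some further lower calls are named as well. Alternatives were other centring and scaling, array weights, other handling of floor and missing values, each orientation alone, orientations averaged, and each array left out.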

Additional observations from a re-analysis of the deposited data

Results flagged for a closer look

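Of the 30 probes with 4 values, 2 had an array that lay far from the other 3 by Dixon's ratio of the gap to the range, above the critical value for 4 samples; chance gives about 1 in 20. For Fdft1 the ratio was 0.835, with array 4 at 0.01 and the others at 0.08 to 0.10 on the log2 scale. For Gpam it was 0.879, with array 3 at -0.50 and the others at -0.37 to -0.35. Both gaps were under 0.2 on the log2 scale.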

How the results depend on the processing

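The 18 higher and 6 lower calls became 13 and 4 without the orientation term, and 20 and 5 with arrays centred on their medians. They numbered 14 to 16 and 4 to 4 with 1 array left out. With each orientation averaged to 1 value, limma called 0 higher and 0 lower, and 0 of all 14184 probes, where 7 synthesis probes were higher and 0 lower and 1526 of all probes passed at an unadjusted p under 0.05; that fit has 1 residual degree of freedom. Over all probes, 8779 calls became 3968 without the orientation term, and 5808 to 6782 with 1 array left out. The median log2 ratio of the synthesis probes, 0.28, was 0.35 with arrays centred, 0.32 on arrays 3 and 4 alone and 0.26 to 0.29 with 1 array left out. Of 330 single-probe values under the other tested alternatives, 288 kept their direction and side of the threshold, 33 lost a call, 3 gained one and 6 changed sign; all 24 calls were lost with orientations averaged. The sign changes were of probes that were not called: Lss (-0.0644 to 0.0206 with 1 array left out, 0.0390 centred), Ebp (-0.0799 to 0.0580 and 0.0499) and Acaca AF374167 (-0.0329 to 0.117 with 1 array left out). Of 60 values from 1 orientation alone, which have no test, 4 changed sign: Sc5d, called higher, turned to -0.19 on arrays 1 and 2, Acaca AF374167 to -0.45 there, Lss to 0.06 and Scd1 to -0.28 on arrays 3 and 4. The causes were not tested. Each ratio already pairs MM with IM on 1 array, so no further replicate block was fitted.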
